A study of Mus musculus with 3 samples.

Results

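The contact of 4 pluripotency genes with the nuclear lamina was described in mouse embryonic fibroblasts, differentiated cells in which the pluripotency programme is normally silent. The genes were Sox2, Nanog, Pou5f1 (the gene of Oct4) and Klf4. Sox2, Nanog and Pou5f1 maintain one another's expression in embryonic stem cells, and Oct4, Sox2 and Klf4 are among the factors that can reprogram fibroblasts to pluripotency. The genes were placed at positions 34549000 of chromosome 3, 122658000 of chromosome 6, 35643000 of chromosome 17 and 55543000 of chromosome 4 of the mm9 genome, and every fragment whose middle lay within 50 kb of a position was taken. That gave 1006 of the 6415372 fragments of each profile. The fibroblasts were of strain C57BL/6 and wild type. They had been transduced with retroviruses for Dam-Lamin A, Dam-Lap2b or Dam Only, 1 sample for each. All 3 groups therefore carried a retrovirus and a Dam enzyme, and none was left untransduced. The labels name neither the promoter of the cassette nor the number of embryos pooled.

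In DamID a bacterial adenine methylase, Dam, is fused to a protein of interest and methylates GATC sites that come near it. Fragments between methylated sites are then amplified and sequenced. The lamina is a protein mesh under the nuclear envelope. Lamin A forms filaments of that mesh, and Lap2b is anchored in the inner nuclear membrane and binds lamins. Chromatin at the lamina is on the whole poor in active genes, and unfused Dam methylates open chromatin most readily, which is why it serves as the control. Each deposited value was a log2 ratio of a fusion to a reference, so a value below 0 stood for fewer reads of the fusion than of the reference. With 1 sample a group no test between the fusions was possible, and SDs below are over fragments or bins of 1 library. More contact in some cells and weaker contact in all cells cannot be told apart. RNA was not measured, so the identity of the fibroblasts could not be checked. Whether each of the 4 genes was silent or expressed in them is not known from these data.

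The stretches just before the 4 gene starts are shown because GATC sites decide where DamID can report. The sequences are from RefSeq, build GRCm38.p6, each of 250 bases on the strand of the gene, 5′ to 3′ and ending at the base before the most upstream start. Capitals mark GATC. Their coordinates are of GRCm38.p6 and are not comparable with the mm9 positions used elsewhere. Sox2 lies at chr3:34649745-34649994 (plus strand), Nanog at chr6:122707239-122707488 (plus), Pou5f1 at chr17:35505782-35506031 (plus) and Klf4 at chr4:55532476-55532725 (minus).
Sox2: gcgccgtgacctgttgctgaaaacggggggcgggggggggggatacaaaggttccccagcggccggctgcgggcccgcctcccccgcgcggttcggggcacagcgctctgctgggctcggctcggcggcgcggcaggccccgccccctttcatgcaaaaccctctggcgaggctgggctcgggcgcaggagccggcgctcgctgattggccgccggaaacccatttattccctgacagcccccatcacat
Nanog: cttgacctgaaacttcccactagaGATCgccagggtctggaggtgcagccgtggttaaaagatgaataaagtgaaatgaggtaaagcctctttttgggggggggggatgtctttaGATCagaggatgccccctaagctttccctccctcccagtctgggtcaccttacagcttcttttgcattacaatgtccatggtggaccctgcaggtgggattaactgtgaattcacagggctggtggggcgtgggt
Pou5f1: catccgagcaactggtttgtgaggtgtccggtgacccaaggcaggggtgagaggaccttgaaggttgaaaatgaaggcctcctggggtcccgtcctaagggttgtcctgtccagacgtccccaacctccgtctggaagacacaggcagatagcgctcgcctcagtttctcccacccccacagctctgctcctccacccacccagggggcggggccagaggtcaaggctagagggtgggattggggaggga
Klf4: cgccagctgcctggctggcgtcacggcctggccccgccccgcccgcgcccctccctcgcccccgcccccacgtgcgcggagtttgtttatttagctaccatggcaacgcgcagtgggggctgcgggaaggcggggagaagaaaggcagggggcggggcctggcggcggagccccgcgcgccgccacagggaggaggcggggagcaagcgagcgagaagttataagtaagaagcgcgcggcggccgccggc

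Of these 4 sequences the one of Nanog held GATC, at 2 places that begin at bases 25 and 116. Among the 32851 promoter entries of the table, 41.9% held at least 1 GATC in the same 250 bases. The spacing of 91 bases at Nanog matched fragments of 88 bp, of which there were 2 among the 279 fragments within 50 kb of the gene. They were chr6:122657285-122657372 and chr6:122631082-122631169 in mm9, and the first had its middle at −0.672 kb from the Nanog position. Without mm9 sequence the match by length alone does not settle which fragment, if either, is the promoter. The nearer one had 0 recovered reads in both fusion libraries and 1 in the reference, each a lower bound, and was not described further. The promoters of Sox2, Pou5f1 and Klf4 had no GATC in this stretch. The stretch of Klf4 was the richest in CpG, with 32 CpG, and that of Sox2 held 27, Pou5f1 8 and Nanog 3, against a median of 6 over the table. The GC box GGGCGG, searched on both strands, occurred 4 times at Klf4, 2 times at Sox2, once at Pou5f1 and not at Nanog, and 32.7% of all entries held it.

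Whole reads could be recovered from the ratios. Dam-Lamin A had at least 139435550, the reference at least 153450178 and Dam-Lap2b at least 151511590. The ratios had 1 read added to each library, so a value with 0 fusion reads depends on that addition. The reference was taken to be the Dam Only library, which no label or header states. Profiles and domain lists are named here by their labels. Over the genome they went together crosswise. The Dam-Lamin A profile averaged −0.04 in the 16943 bins that only its own list covers and 0.37 in the 6436 bins that only the other list covers. The Dam-Lap2b profile averaged 0.04 in the bins of its own list and 0.46 in those of the other. Each gene is therefore set against both lists. Whether any labels, of the lists or of the profiles, were exchanged cannot be told here. The domain caller is not given, and the part that the calling of the lists has in this was not tested. Every result given for a single fusion rests on its label.

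None of the 4 genes lay in a listed lamina-associated domain, in either list, and all 4 were below 0 in both profiles. Within 50 kb, Sox2 averaged −0.90 ± 1.40 in the Dam-Lamin A profile and −0.79 ± 1.08 in the Dam-Lap2b profile (SD over 221 fragments). Nanog averaged −0.84 ± 1.53 and −0.95 ± 1.11 in the same order (279 fragments). Pou5f1 averaged −1.08 ± 1.45 and −1.77 ± 1.54 (277 fragments). Klf4 averaged −1.30 ± 1.49 and −1.08 ± 1.46 (229 fragments). Being outside every listed domain of both lists was common, and 43.0% of all 100 kb windows were. Of those 11038 windows outside, the mean was −0.89 ± 0.57 (SD over windows) in the Dam-Lamin A profile and −0.83 ± 0.67 in the Dam-Lap2b profile. Of the windows outside, 24.0 to 58.5% lay below the 4 genes in the former profile and 7.47 to 53.8% in the latter. In listed domains the means were 1.11 ± 0.70 and 1.14 ± 0.58.

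**Figure D1:**
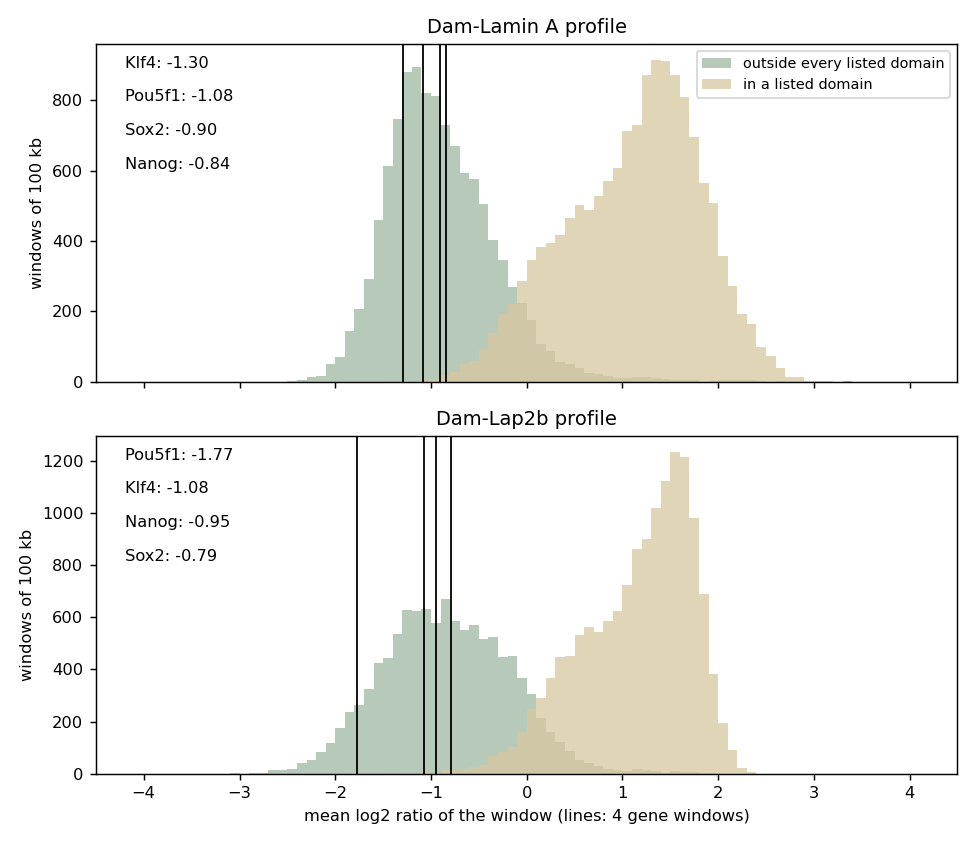
Distribution of the mean log2 ratio over 25670 windows of 100 kb (x axis), as number of windows (y axis), for windows outside every listed domain and windows in a listed domain. The vertical lines mark the windows of the 4 genes, whose values are printed at the left, and all 4 lie within the group outside the domains in both profiles.

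Among 10 bins of 10 kb around each gene, bins above 0 were rare. Of the 40 bins of the 4 genes, 1 was above 0 in the Dam-Lamin A profile and 0 in the Dam-Lap2b profile, where 55.2% and 59.3% of all 10 kb bins of the genome were. Those shares of the genome include bins in listed domains. Bins outside every listed domain averaged −0.99 ± 0.77 and −0.89 ± 0.77 in the same order (SD over bins). The 1 bin above 0 near the genes lay 10 to 20 kb to the right of Nanog, at 0.01 ± 1.58 over 33 fragments. It was at −0.06 ± 1.31 in the Dam-Lap2b profile. The highest bin of Sox2 was −0.50 in the Dam-Lamin A profile and −0.23 in the Dam-Lap2b profile. For Pou5f1 the highest bins were −0.22 and −0.73, and for Klf4 −0.56 and −0.32. Single fragments were more mixed. In the Dam-Lamin A profile 20.5 to 30.5% of the fragments of a gene window were above 0, where 60.6% of all fragments were. In the Dam-Lap2b profile it was 13.4 to 24.4%, where 62.7% of all fragments were. Both shares of all fragments include those in listed domains. A fragment with 0 recovered reads in all 3 libraries has a fixed value just above 0 (0.0846 and 0.0222) and counts as above 0. Such fragments made up 2.71 to 4.80% of a gene window. At Pou5f1 they were 12 of the 37 fragments above 0 in the Dam-Lap2b profile. They were not left out of these shares.

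**Figure D2:**
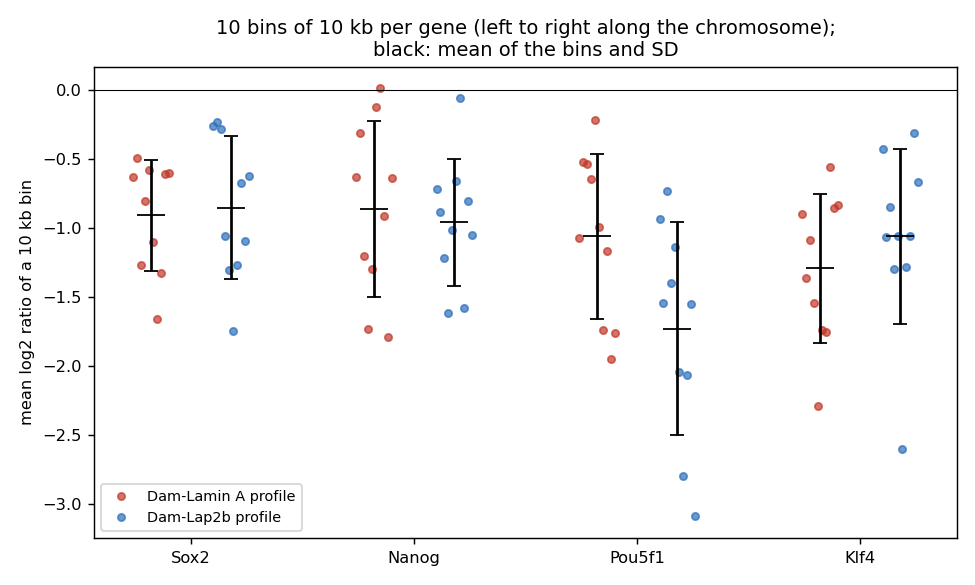
Mean log2 ratio (y axis) of each of the 10 bins of 10 kb around each gene, in the order of the chromosome, for both profiles; black bars give the mean of the bins and their SD. All points but 1 lie below 0, the exception being 0.01 at Nanog in the Dam-Lamin A profile, and the bins of the genes overlap.

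The order of the genes differed between the profiles. From low to high it was Klf4, Pou5f1, Sox2, Nanog in the Dam-Lamin A profile and Pou5f1, Klf4, Nanog, Sox2 in the Dam-Lap2b profile. No step between neighbours in either order was larger than the SD over the 10 bins of the more variable gene. The largest step was the 0.70 between Pou5f1 and Klf4 in the Dam-Lap2b profile, where the SDs over bins were 0.77 and 0.64. Against all 100 kb windows, Pou5f1 was placed lowest of the 4 in the Dam-Lap2b profile, with 3.21% of windows below it, and Klf4 in the Dam-Lamin A profile, with 10.3%. Klf4 had 16.2% of windows below it in the Dam-Lap2b profile, and Pou5f1 17.7% in the Dam-Lamin A profile. Sox2 had 23.3% of windows below it in the Dam-Lap2b profile and 23.4% in the Dam-Lamin A profile, and Nanog 19.3% and 25.3%. Among windows outside the domains alone, Nanog and Sox2 stood near the middle, with 44.6 to 58.5% of windows below them.

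**Figure D3:**
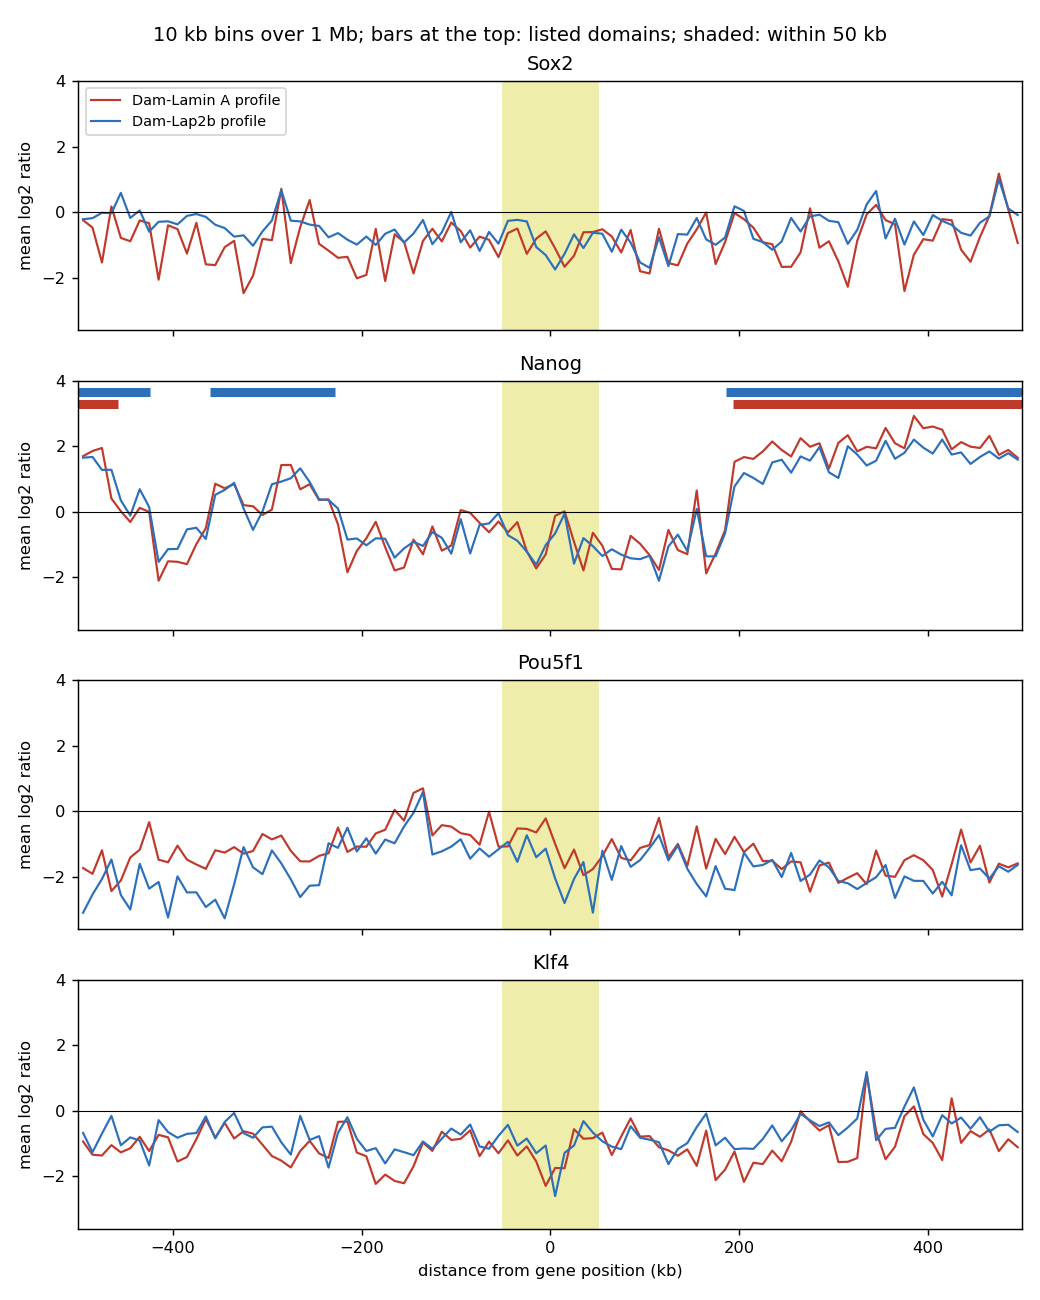
Mean log2 ratio of 10 kb bins (y axis) against distance from the gene position in kb (x axis) over 1 Mb, with both profiles as lines and the listed domains of both lists as bars at the top. Domains reach into the 1 Mb around Nanog and not into that around Sox2, Pou5f1 or Klf4.

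Sox2, an HMG-box transcription factor that acts with Oct4 in embryonic stem cells and is also used by neural progenitors, lay in a wide interior stretch. In GRCm38.p6 its nearest protein-coding neighbours are Dnajc19 and Atp11b, and the long noncoding gene Sox2ot overlaps it. The nearest listed domain was 634 kb to the right in the Dam-Lamin A list, chr3:35183089-35285774 in mm9, only 103 kb long. In the Dam-Lap2b list it was 865 kb to the left, at chr3:33359929-33684363. The gap between listed domains that held Sox2 spanned 1295 kb in the Dam-Lamin A list and 1749 kb in the other, where the median gap was 129 kb and 158 kb. The surroundings were low as well. The rest of the 1 Mb averaged −0.83 and −0.46 in the profiles Dam-Lamin A and Dam-Lap2b, so the 100 kb around Sox2 differed from it by −0.08 and by −0.33, less than the SD over its bins (0.40 and 0.52).

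In the Dam-Lap2b profile 1 bin at Sox2 was the lowest of the megabase, by a margin far smaller than its SD. The 10 kb that begin at the Sox2 position were at −1.75 ± 1.65 (SD over 15 fragments), the lowest of the 100 bins, and the 10 kb before them at −1.31 ± 1.32. Bins centred 95, 105 and 125 kb to the right of Sox2 were at −1.53, −1.69 and −1.65. In the Dam-Lamin A profile the 10 kb that begin at the Sox2 position were at −1.10 ± 1.53 and the 10 kb before them at −0.58 ± 1.34. The bins centred 95, 105 and 125 kb to the right were at −1.80, −1.87 and −1.55 in that profile. There the lowest bin near Sox2 ranked 13 from the lowest of the 100. The lowest lay 330 kb to the left, at −2.47.

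Nanog, a homeodomain protein that stabilises the pluripotent state, was the gene closest to a listed domain. Its protein-coding neighbours are Dppa3, a gene of the early embryo and germ line, on the left and Slc2a3, a glucose transporter gene, on the right. To the right a domain of 1491 or 1498 kb began 193 kb away in the Dam-Lamin A list (chr6:122851283-124342509) and 185 kb away in the Dam-Lap2b list (chr6:122843487-124341641). To the left the nearest domain ended 458 kb away in the former list and 228 kb away in the latter, whose additional domain was 133 kb long. Nanog thus sat in a gap of 651 kb by the one list and 414 kb by the other.

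The flanks of Nanog were high on the right and mixed on the left. The 450 kb beyond the window on the right averaged 1.19 in the Dam-Lamin A profile and 0.85 in the Dam-Lap2b profile, and those to the left −0.16 and −0.09. The 100 kb around Nanog differed from the rest of the 1 Mb by −1.41 and by −1.37, more than the SD over its 10 bins (0.64 and 0.46). The largest such difference of the other 3 genes was −0.38, at Klf4. Over all 100 bins of the 1 Mb around Nanog the SD was 1.44 and 1.23. Low bins also lay elsewhere in the gap, such as those centred 165 kb to the left (−1.79 and −1.40) and 75 kb to the right (−1.76 and −1.31). Nanog thus did not stand apart within its gap. The edge on the right was steep. At the start of the Dam-Lamin A list's domain, the 50 kb inside averaged 1.82 ± 1.08 and the 50 kb outside −0.59 ± 1.48 in the Dam-Lamin A profile, a step of 2.41. In the Dam-Lap2b profile the same step was 1.97, from −0.82 ± 1.10 to 1.15 ± 1.00. Of the 100 bins around Nanog, 52 were above 0 in each profile, against 7 and 10 around Sox2, 3 and 1 around Pou5f1 and 3 and 3 around Klf4 (profiles Dam-Lamin A and Dam-Lap2b). With 55.2% and 59.3% of all bins above 0, the megabase of Nanog was near the genome share, and those of the other 3 genes were below it. The genome share includes bins in listed domains, and none of the 1 Mb around the other 3 genes was listed. A low count there says little beyond that. Bins outside every listed domain had a 95th percentile of 0.32 and 0.35, and their share above 0 was not counted.

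Pou5f1 encodes Oct4, the POU-domain factor that marks the inner cell mass and germ cells. It lies at the edge of the class I histocompatibility genes, between H2-Q10 and Tcf19, in a region dense with genes. The nearest listed domain was 858 kb to the right and began at the same base, 36500605 of chromosome 17, in both lists. To the left none came within 1993 kb, and the gap that held Pou5f1 was 3126 kb long in the Dam-Lamin A list and 2851 kb in the Dam-Lap2b list, longer than 96.5% and 96.1% of gaps. Pou5f1 did not stand apart from its surroundings. The rest of its 1 Mb averaged −1.21 and −1.72 in the profiles Dam-Lamin A and Dam-Lap2b, and the 100 kb around Pou5f1 differed from it by 0.13 and by −0.06, with SDs over its bins of 0.60 and 0.77. The bin that was lowest near the gene in the Dam-Lap2b profile, 40 to 50 kb to the right, was at −1.76 ± 1.47 in the Dam-Lamin A profile and at −3.09 ± 1.94 in the Dam-Lap2b profile, and held 3740 reference reads over 27 fragments.

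At Pou5f1 the profiles differed most among the 4 genes. The Dam-Lamin A value minus the Dam-Lap2b value averaged 0.69 within 50 kb (SD over the 10 bins 0.58), and 95.5% of all 100 kb windows had a lower difference. It was 0.11 at Nanog, −0.11 at Sox2 and −0.22 at Klf4, with SDs over bins of 0.50, 0.57 and 0.57. The difference at Pou5f1 was not confined to the gene. The rest of the 1 Mb around Pou5f1 averaged −1.21 in the Dam-Lamin A profile and −1.72 in the Dam-Lap2b profile. Single bins far from Pou5f1 differed widely too, such as the one centred 345 kb to the left, at −1.26 and −3.27. Of the 10 bins at Pou5f1, 4 had a difference above 1, where 4.15% of all bins did, and the other 3 genes had 0. A difference below −1, which 7.08% of all bins had, was found in 1 bin, the 10 kb to the left of the Klf4 position, at −1.23. In the 5 kb on each side the Pou5f1 mean was −0.10 ± 1.28 in the Dam-Lamin A profile and −1.67 ± 1.38 in the Dam-Lap2b profile (SD over 31 fragments). The difference there averaged 1.57 at Pou5f1, 0.86 at Sox2, 0.86 at Klf4 and 0.04 at Nanog. At Sox2 and Klf4 it thus had the other sign from that within 50 kb. With bins of 5 kb, a bin at the position itself was above 0 in the Dam-Lamin A profile, as an unweighted mean over fragments. The fragments within 5 kb included a 31 bp fragment at 3.54, from 10 Dam-Lamin A and 0 reference recovered reads. Summed over the 5 kb on each side, Dam-Lamin A had fewer recovered reads than the reference, 1245 against 1764. Where both fusions had the same number of recovered reads, the sign of the difference was that of the constants of the profiles, so such fragments were left out of a count of signs. This left 27 of the 31 fragments within 5 kb of Pou5f1, and the Dam-Lamin A value was the higher in 26 of them, where it was the higher in 48.6% of such fragments of the genome. The counts were 9 of 19 at Klf4, 13 of 23 at Nanog and 8 of 13 at Sox2. Within 50 kb of Pou5f1 the count was 154 of 236. Fragments share a library and are not replicates.

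Klf4, a zinc-finger factor of stem cells that also has roles in skin and gut epithelium, lay in the widest gap. Its protein-coding neighbours are Rad23b and Actl7b. The nearest listed domain ended 658 kb to the left in the Dam-Lamin A list (chr4:53978363-54884618) and 762 kb to the left in the Dam-Lap2b list (chr4:54577561-54780507). To the right the next began only after 4404 and 4394 kb, so that the gap was 5062 and 5156 kb long, longer than 98.6% and 99.02% of gaps. The 100 kb around Klf4 differed from the rest of the 1 Mb by −0.29 and by −0.38 in the profiles Dam-Lamin A and Dam-Lap2b, within the SD over bins (0.54 and 0.64). The 5 kb on each side of the position averaged −2.12 ± 1.39 and −2.97 ± 2.96 (SD over 20 fragments), and 2.53% and 0.274% of all 10 kb bins were lower. The lowest of the 100 bins lay at Klf4 in both profiles, though in the Dam-Lamin A profile bins centred 185 and 155 kb to the left were close to it, at −2.23 and −2.21. It was the 10 kb left of the position in the Dam-Lamin A profile, −2.29 ± 1.30, and the 10 kb right of it in the Dam-Lap2b profile, −2.60 ± 2.86.

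Fragments at the gene positions were next read one by one, a step chosen after the values were seen. The fragment that held the Klf4 position, chr4:55542814-55543529 (716 bp), had −10.80 in the Dam-Lap2b profile, the 24th lowest value of all 6415372 fragments. In the Dam-Lamin A profile the same fragment had −1.74, and 14.4% of fragments were lower. The recovered reads were 1815 in the reference, 513 in Dam-Lamin A and 0 in Dam-Lap2b, each a lower bound. The next 3 fragments to the right were at −6.42, −7.05 and −8.23 in the Dam-Lap2b profile and at −4.00, −2.90 and −2.18 in the Dam-Lamin A profile. They held 866, 134 and 1519 reference reads. The median fragment of the genome held 7. To the right of them, chr4:55544873-55546183 was at 1.83 in the Dam-Lamin A profile and at −3.44 in the Dam-Lap2b profile, from 36, 0 and 10 reads (Dam-Lamin A, Dam-Lap2b, reference).

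At Sox2 and Pou5f1 the fragment on the position pointed in opposite directions in the profiles. The one at Sox2, chr3:34547655-34549202, had 2.27 in the Dam-Lamin A profile and −3.68 in the Dam-Lap2b profile, from 58, 0 and 12 reads in the same order. The one at Pou5f1, chr17:35641759-35643132, had 1.42 and −3.37, from 52, 1 and 20 reads. The Nanog fragment, chr6:122657724-122658134, had −0.20 and −0.61, from 13, 10 and 16 reads. With thresholds also chosen after the values were seen, a Dam-Lamin A value above 1 with a Dam-Lap2b value below −3 occurred in 4 of the 91 fragments within 5 kb of the 4 positions, and in 0.0771% of all fragments. These were 2 at Pou5f1, 1 at Sox2 and 1 at Klf4. Within 50 kb there was 1 more, near Nanog, which made 5 of 1006. A Dam-Lap2b value below −5 occurred in 5 of the 91, 4 at Klf4 and 1 at Sox2 (chr3:34549557-34550162, −5.99), and in 0.224% of all fragments. Within 50 kb the count was 18 of 1006, 13 of them at Pou5f1. In the Dam-Lamin A profile 0 of the 91 were below −5 and 2 of the 1006, 1 at Pou5f1 and 1 at Klf4, where 0.204% of all fragments were. With 1 read added to each library, a fragment with few reference reads cannot fall below −3 or −5. The median was 22 reference reads in the 91 fragments and 16 in the 1006, against 7 over the genome. The counts were not matched for reference reads, and the part these have in them was not tested.

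The reads behind the ratios showed which library departed from its own mean. Recovered reads per kb within 5 kb of Klf4 were 8.76 times the library mean in the reference, 2.10 times in Dam-Lamin A and 0.656 times in Dam-Lap2b. At Pou5f1 they were 3.05 times in the reference, 2.37 times in Dam-Lamin A and 0.437 times in Dam-Lap2b. At Sox2 they were 1.33, 0.511 and 0.411 times, and at Nanog 0.858, 0.444 and 0.410 times, in the same order. Reference reads were thus above the mean at Klf4, Pou5f1 and Sox2 and below it at Nanog, Dam-Lap2b reads were below the mean at all 4, and Dam-Lamin A reads were above it at Klf4 and Pou5f1. Over 1 Mb the reference stood at 1.47 times its mean around Klf4, 2.84 times around Pou5f1, 1.23 times around Sox2 and 1.14 times around Nanog. The part that the reference has in the low ratios was not tested.

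**Figure D4:**
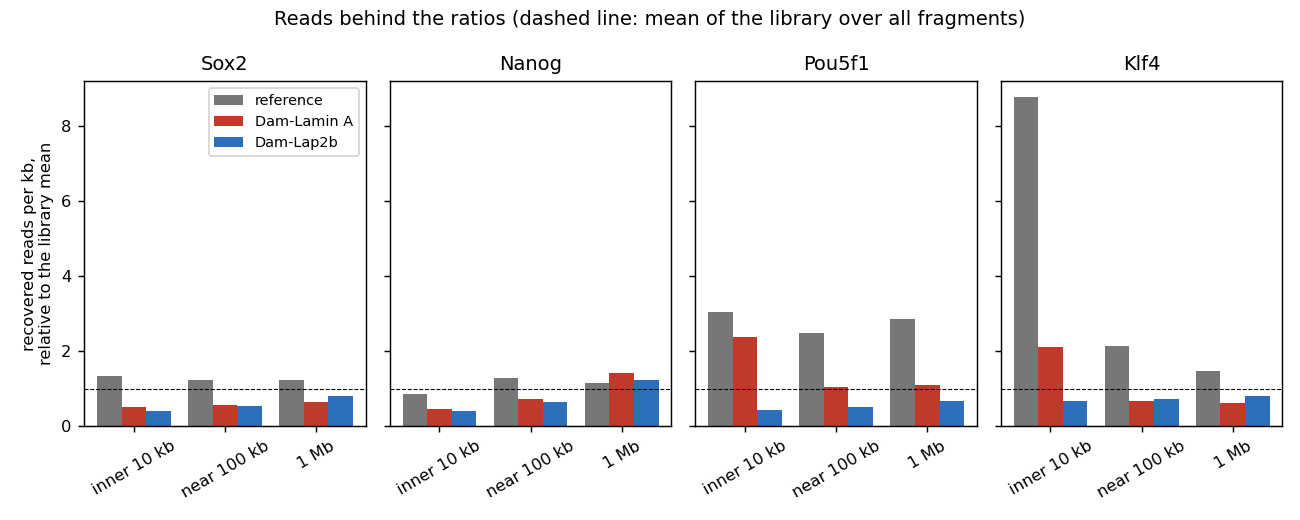
Recovered reads per kb in 3 windows around each gene, as a multiple of the mean of the library (y axis, bars from 0), for the reference and both fusions. The reference bar of Klf4 reaches 8.76 in the inner 10 kb and 1.47 over 1 Mb, while at Pou5f1 it stays between 2.49 and 3.05 in all 3 windows.

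The averages over 100 kb stayed below 0 without the fragments at the gene positions. Without the inner 10 kb, an alternative added after the values were seen, the Dam-Lap2b mean was −0.89 at Klf4, −0.72 at Sox2, −1.79 at Pou5f1 and −0.96 at Nanog. The Dam-Lamin A means were −1.22, −0.89, −1.20 and −0.84 in the same order. The counting error of the ratio of summed reads within 50 kb was 0.02 to 0.03 (SE, log2) for each gene and profile, below every SD over bins, and it covers counting error only.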

How the data were processed

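Log2 ratios per fragment were deposited for Dam-Lamin A and Dam-Lap2b, with lists of domains by start and end. Bowtie and mm9 are named, per the submitters' processing notes, without a version; the counting, the normalization and the domain caller are not given in the sources used here. No separate file of the Dam Only sample was analysed here. The deposited log2 values were averaged per gene window (50 kb on each side), in 10 kb bins with at least 5 fragments and in 100 kb windows with at least 50, by the middle of the fragment. Reads were recovered as the smallest whole numbers that, with 1 added to each, gave both ratios after a constant (0.0846 and 0.0222) was taken off, with denominators up to 5000, for 99.9968% of fragments. This was tried on simulated data for the 229561 fragments of chromosome 17. There 86.3% came back exactly and 0% too high, and 17 of 17 planted windows kept their sign. The smallest fit cannot come back too high. The simulation was drawn from the recovered reads with the same constants and the same added read. It therefore checked the arithmetic and not whether these settings hold for the deposited ratios. All 4 genes are described; neighbours are the nearest protein-coding genes of the RefSeq table (GRCm38.p6), in which all 4 matched. Other pluripotency genes were not used, since no mm9 annotation was at hand. Members and lists were chosen with earlier results of these data known. Python 3.11.15, numpy 2.4.6 and pandas 2.3.3 were used.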

Additional observations from a re-analysis of the deposited data

Results flagged for a closer look

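Some values pointed in opposite directions in the 2 groups, each of 1 sample, and the differences were not tested. The fragment on the Sox2 position was at 2.27 in the Dam-Lamin A profile and at −3.68 in the Dam-Lap2b profile. The fragment on the Pou5f1 position was at 1.42 and at −3.37. The 100 kb around Pou5f1 minus the rest of its 1 Mb came to 0.128 in the Dam-Lamin A profile and to −0.0552 in the Dam-Lap2b profile, both smaller than the SD over its bins (0.60 and 0.77).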

How the results depend on the processing

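Of 208 alternative values for 52 results, 182 kept their sign and moved by less than the SD over bins, or by at most 1.5 times for distances, counts and percentiles. The means within 50 kb stayed below 0 for every gene and profile under all alternatives run, with extremes of −0.66 for Sox2 and −2.34 for Pou5f1, both in the Dam-Lap2b profile. The window minus its rest of 1 Mb changed sign for Sox2 in the Dam-Lamin A profile when weighted by fragment length (0.0402). For Pou5f1 it changed sign in the Dam-Lamin A profile with 2 Mb of surroundings (−0.36) and with fragments of 200 to 1000 bp (−0.0353), and in the Dam-Lap2b profile with 100 kb on each side (0.22) and with medians (0.038). With 2 Mb it moved to −0.51 for Sox2 in the Dam-Lamin A profile and to −2.20 and −2.10 for Nanog. The difference between the profiles at Sox2 became 0.0358 with 25 kb on each side. Nearest single bins above 0 depended on the bins. Their distance in the Dam-Lamin A profile was 250 kb for Sox2 (85 kb with 5 kb bins), 10 kb for Nanog (180 kb with 20 kb bins, 5 kb with shifted bins), 130 kb for Pou5f1 (0 kb with 5 kb bins) and 330 kb for Klf4 (35 kb with 5 kb bins, 215 kb with shifted bins). In the Dam-Lap2b profile it was 100 kb for Sox2 (65, 280 and 195 kb with 5 kb, 20 kb and shifted bins), 150 kb for Nanog (10 kb with 5 kb bins, 5 kb shifted), 130 kb for Pou5f1 (740 kb with 20 kb bins) and 330 kb for Klf4 (35 kb with 5 kb bins, 165 kb shifted). Shifted bins gave Nanog 1 bin above 0 in the Dam-Lap2b profile. With fragments of 200 to 1000 bp, 1.14% of windows lay below Pou5f1 in the Dam-Lap2b profile and 6.35% below Klf4 in the Dam-Lamin A profile. The cause was not tested. Distances to listed domains moved by at most 1.5 times. No paired analysis was possible because each group had 1 sample. Single fragments near the median of 10 fusion and 7 reference reads are imprecise.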
